A study of Homo sapiens with 2 samples.

Results

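The natriuretic peptide system was examined in a liver cancer cell line with and without added miR-130b. It was taken as 8 genes: the 3 peptide ligands NPPA, NPPB and NPPC, the 3 receptors NPR1, NPR2 and NPR3, and the 2 processing proteases CORIN and FURIN. A probe set, the group of oligonucleotides that reads a transcript on the array, was assigned to a gene where the platform annotation gave that gene as its only symbol. By this rule 7 of the 8 genes had 12 probe sets, among 19775 genes and 54613 non-control probe sets in all. NPR2 had no probe set of its own under this rule and was not analysed here. NPPB was chosen because of its large decrease in these same arrays, so its values are a description and carry no test.

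The samples were 2 expression arrays of PLC8024, a human hepatocellular carcinoma line, both from cells sorted by flow cytometry for lack of the surface marker CD133. One array came from cells transduced with an empty lentiviral vector and the other from cells with lentiviral miR-130b, although the source label of the second calls it a transfection. Each condition has 1 array, so no value has a replicate error, no test between the conditions was possible, and each difference is one between these 2 arrays and the cultures behind them. Both arrays are of 1 cell line.

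Natriuretic peptides are small hormones with a ring closed by a disulfide bond. Atrial natriuretic peptide (from NPPA) and B-type natriuretic peptide (from NPPB) are made mainly by the heart and promote salt excretion and vessel relaxation, whereas C-type natriuretic peptide (from NPPC) acts locally, on growing bone among other tissues. NPR1 and NPR2 are guanylyl cyclases that make cyclic GMP when a peptide binds, and NPR3 removes peptides from the circulation. The precursors are cut by the membrane protease corin and by the convertase furin.

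The agent added to the cells was miR-130b. Its mature arms in the RefSeq table (GRCh38.p14, chromosome 22, plus strand, 21653354 to 21653375 for the 3p arm and 21653316 to 21653336 for the 5p arm) are shown 5′ to 3′, with the seed, bases 2 to 8, in capitals, because the seed is what a target transcript pairs with. The table holds 6 mature microRNAs with the seed of the 3p arm, and miR-301b-3p, encoded on the same chromosome, and miR-454-3p are shown beside it.
hsa-miR-130b-3p: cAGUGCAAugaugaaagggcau
hsa-miR-130b-5p: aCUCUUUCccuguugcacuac
hsa-miR-301b-3p: cAGUGCAAugauauugucaaagc
hsa-miR-454-3p: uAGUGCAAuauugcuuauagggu
The 3p arms share the seed run AGUGCAA, while the 5p arm of miR-130b has another seed. Matches to these seeds in the members' transcripts were not searched here.

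The deposited values are on the log2 scale. A probe set was called measured when the brighter of its 2 values reached 4.88, a floor set at the median over all non-control values. Of 13260 measured genes, 201 were lower by 2-fold or more with miR-130b and 0 were higher by as much. In the 6047 genes with several measured probe sets, the log2 differences of probe sets of one gene varied around their mean with a pooled SD of 0.202. This spread may include differences between transcripts of a gene and holds no variation between cultures. Each gene was represented by its brightest measured probe set. Of the 12 member probe sets, 6 passed the floor, covering NPPA, NPPB, NPR1, CORIN and FURIN. NPPC and NPR3 did not pass it.

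Among the ligands, NPPB was the member that differed most. Its only probe set, 206801_at, read 9.82 on the log2 scale with the empty vector and 4.69 with miR-130b. The first value lay above 94.8% of all probe sets of its array and the second above 46.6%, so the gene went from the bright tail to just under the floor. Taken as miR-130b minus empty vector, the log2 difference came to -5.14, which is 35.2-fold lower. With a residual background left in RMA values, a fold that ends below the floor is compressed. In bulk RNA, fewer cells carrying the transcript and less transcript per cell cannot be told apart. One probe set of 1 array a condition supports this value, and no further NPPB probe set was there to check it.

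NPPA, which encodes atrial natriuretic peptide, did not follow NPPB. Its probe set 209957_s_at read 6.68 with the empty vector and 6.64 with miR-130b, a log2 difference of -0.04. That is well within the spread of 0.202 between the differences of probe sets of a gene. The suffix _s_at marks a probe set that can read several transcripts. NPPC, the C-type peptide gene, read 3.89 and 3.79 on 221348_at, below the floor in both arrays, so its difference of -0.10 says little about the transcript.

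**Figure D1:**
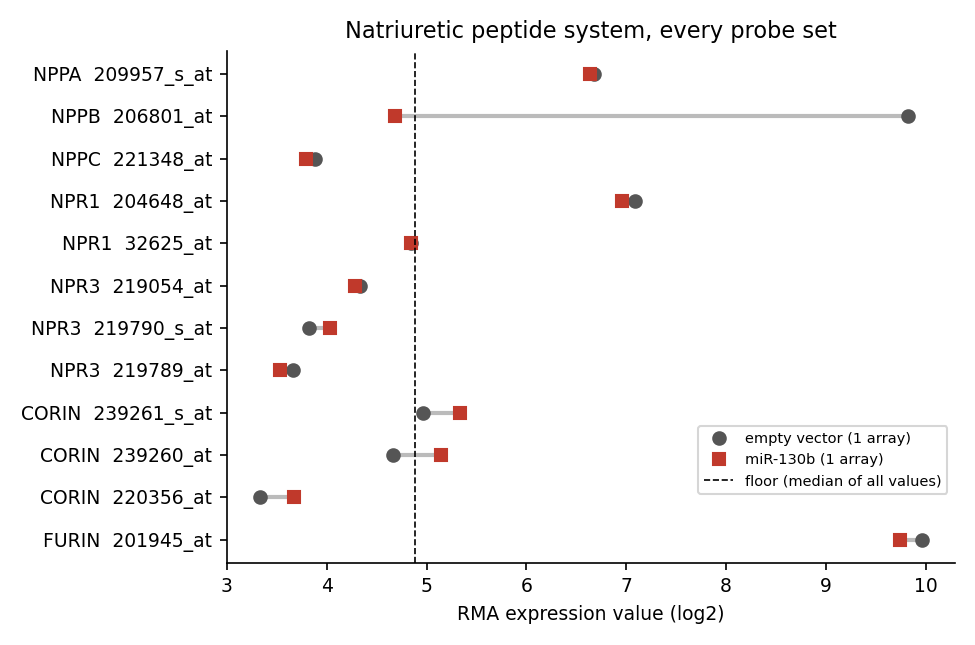
RMA expression values on the log2 scale (horizontal axis) of the 12 member probe sets, with a circle for the empty vector array, a square for the miR-130b array, a line joining the pair and a dashed line at the floor of 4.88. NPPB runs from 9.82 to 4.69, the 3 CORIN probe sets shift to the right, and the others have nearly overlapping symbols.

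The receptors gave no large difference. NPR1, the cyclase receptor of the atrial and B-type peptides, read 7.09 with the empty vector and 6.95 with miR-130b on 204648_at, a log2 difference of -0.14. Its second probe set, 32625_at, read 4.85 and 4.84, just under the floor, with a difference of -0.01. Both NPR1 differences lay within the spread between the differences of probe sets of a gene. NPR3, the clearance receptor, had 3 probe sets, each below the floor in both arrays. They read 4.33 and 4.28 on 219054_at, 3.82 and 4.03 on 219790_s_at, and 3.66 and 3.54 on 219789_at, in the order empty vector, miR-130b. The sign of the NPR3 difference was not the same on the 3 probe sets.

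The processing proteases differed from the empty vector in opposite directions, by small amounts. FURIN, a ubiquitous convertase of the secretory pathway, read 9.96 with the empty vector and 9.75 with miR-130b, a log2 difference of -0.21, about as large as the spread of 0.202. CORIN, the transmembrane serine protease that cuts the atrial precursor, was higher on each of its 3 probe sets. Probe set 239261_s_at read 4.97 with the empty vector and 5.33 with miR-130b, a log2 difference of 0.36. The differences were 0.48 on 239260_at, from 4.66 to 5.14, and 0.34 on 220356_at, from 3.33 to 3.67 and below the floor in both arrays. The CORIN values lie near or under the floor, and no detection call was used. Of 5508 genes with at least 3 probe sets, taken with no floor, 4 (0.0726%) had all of them higher by at least 0.3, CORIN included. This count and its cut were chosen after the CORIN values were seen, so nothing is read from the share. Of 4295 probe sets whose brighter value lay within 0.5 above the floor, 7.22% were higher by at least 0.3. No CORIN probe set reached 1.5-fold, which is 0.58 on the log2 scale.

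Counted over the measured members, 1 of 5 was at least 2-fold lower, NPPB, and the same gene was the only one at least 1.5-fold lower. Over all measured genes the shares were 1.52% and 2.68%. Since NPPB was picked from this contrast, nothing is read from its share. No measured member was at least 1.5-fold higher, against 0.294% of all measured genes. The median difference of the 5 members was -0.14 and that of all measured genes 0.03. The 11 member probe sets other than that of NPPB lay between -0.21 and 0.48, all within 1.5-fold, as were 98.2% of all non-control probe sets.

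NPPB had the second lowest difference of the 13260 measured genes. Of 1402 measured genes that stood within 0.5 of the rounded NPPB level of the empty vector array, 14 were at least 2-fold lower (0.999%). NPPB itself is counted in both numbers. The 6 genes whose log2 difference was nearest to that of NPPB, by the absolute distance over these 2 arrays, were FLRT3, PHLDB2, MYL9, PLK2, SPINK1 and GATA6. FLRT3 was closest, at a distance of 0.47, and each of the 6 read below the floor in the miR-130b array.

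FLRT3, a leucine-rich repeat adhesion protein, read 8.66 with the empty vector and differed by -4.67, and its second probe set differed by -3.62. MYL9, a myosin light chain of smooth muscle and non-muscle contractile bundles, read 8.07 and 4.23, a log2 difference of -3.84. Its dimmer probe set 244149_at went the other way, from 5.45 to 5.79. The MYL9 probe sets thus disagree in sign. PHLDB2, which anchors microtubules at the cell cortex, had a difference of -4.45, with 4 further probe sets that never reached the floor. PLK2, a stress-responsive kinase, differed by -3.66. SPINK1, a secreted trypsin inhibitor, was the gene with a lower difference than NPPB, at -6.63.

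**Figure D2:**
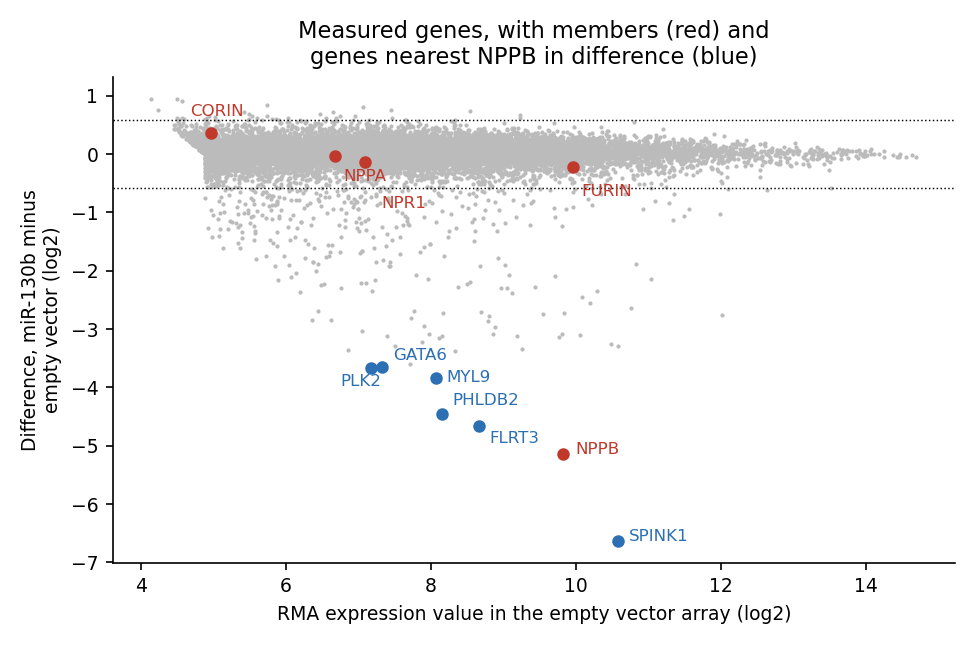
Log2 difference, miR-130b minus empty vector (vertical axis) against the empty vector value on the log2 scale (horizontal axis) for the 13260 measured genes, 1 grey point each, with dotted lines at 1.5-fold. NPPB (red) lies at -5.14, between SPINK1 at -6.63 and FLRT3 at -4.67 (blue), while CORIN, NPPA, NPR1 and FURIN (red) lie between the dotted lines.

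NPPA and NPPB are neighbours on chromosome 1, so the genes around them were read as a local comparison. Of the 10 protein-coding genes that flank NPPB in the RefSeq gene order, 5 on each side, 9 had a probe set of their own, and each of these 9 was within 1.5-fold. Over all measured genes 97% were within 1.5-fold. The 9 differences ran from -0.14 to 0.15. CLCN6, a chloride-proton exchanger of late endosomes that lies next to NPPA, read 6.81 with the empty vector and 6.83 with miR-130b. KIAA2013, the first gene on the other side of NPPB, read 7.81 and 7.96. PLOD1, a collagen lysyl hydroxylase, read 9.42 and 9.40, and MFN2, a mitochondrial fusion GTPase, read 9.32 and 9.20. AGTRAP, an angiotensin receptor-associated protein, read 8.42 and 8.40, and MIIP read 8.22 and 8.08. C1orf167 and TNFRSF8 lay below the floor in both arrays. The difference of NPPB was thus not shared by the flanking genes with a value.

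**Figure D3:**
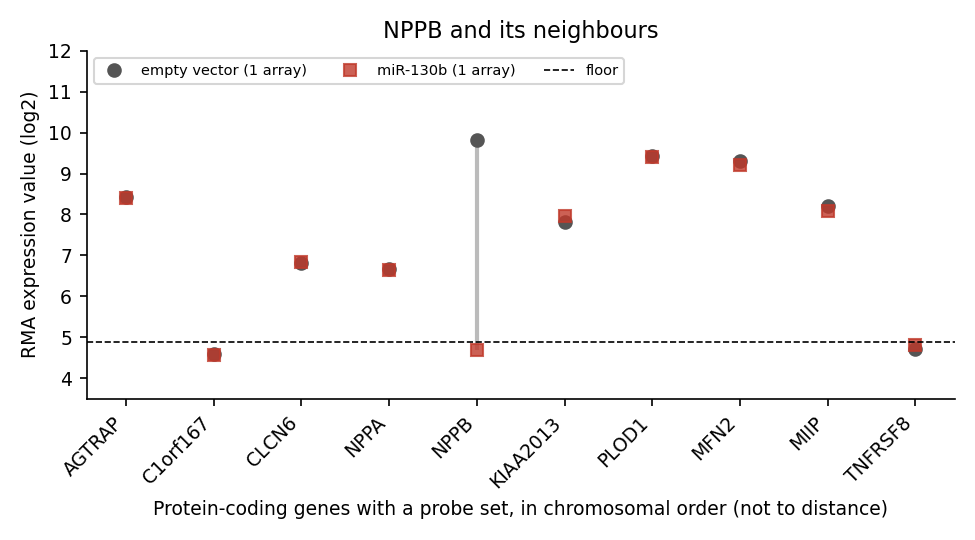
RMA expression values on the log2 scale (vertical axis) of NPPB and the 9 flanking protein-coding genes with a probe set, in chromosomal order and not to distance; circles are the empty vector array, squares the miR-130b array, and the dashed line the floor of 4.88. NPPB is separated by 5.14, and the 9 flanking pairs lie within 0.15 of each other.

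Cardiac transcription of natriuretic peptide genes is known to depend on GATA factors, whose core site reads GATAA. As a planned description, GATAA and the other motifs named below were searched on both strands of the RefSeq promoters (GRCh38.p14, 250 bases before to 50 after the start). The NPPB promoter was not in the table. The windows with a GATAA match are shown for both other ligand genes, written 5′ to 3′ on the gene's own strand with the match in capitals.
NPPA, chr1:11847908-11847936, minus strand: gccctgcgggatGATAActttaaaagggc
NPPA, chr1:11847862-11847890, minus strand: cacttggcagctTTATCactgcaagtgac
NPPC, chr2:231926525-231926553, minus strand: cctccggggtggGATAAgggaggggagcc
The NPPA promoter held GATAA at bases -141 to -137 from the start and, as TTATC, on the other strand at -95 to -91, and NPPC held it at -145 to -141. Of 35116 promoters in the table, 22.7% held this motif. The TEAD core CATTCC was in neither ligand promoter and in 14.0% of all. The AP-1 site TGACTCA was in that of NPPA, at -240 to -234 as TGAGTCA, and in 4.95% of all. The NKX2-5 core AAGTG was in both, and in 43.1% of all. No 2 of these matches overlapped. These matches describe letters and show no binding, and a part of GATA6 in the NPPB difference was not tested.

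Of 34 factors known to act on natriuretic promoters in heart cells, 27 were measured and 2 were at least 1.5-fold lower, where 2.68% of all measured genes were. None was at least 1.5-fold higher. The list's median was -0.05, against 0.03 over all measured genes. This list and those below were chosen with earlier results of these data known, so their counts are descriptions and carry no test. GATA6, an endodermal and cardiac zinc finger factor, read 7.33 with the empty vector and 3.69 with miR-130b on 210002_at, 12.5-fold lower. Its dimmer probe set, 229282_at, read 4.71 and 4.52, below the floor in both arrays, so the GATA6 difference rests on 1 probe set.

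GATA4, the related factor that is best known for NPPB in the heart, read 8.19 and 8.04, a log2 difference of -0.15, and its 5 probe sets differed by -0.38 to 0.14. HIF1A, the oxygen-sensitive subunit of a hypoxia factor, read 11.4 and 10.7, a difference of -0.68. WWTR1, the TAZ coactivator of TEAD factors, differed by -0.44 in its brightest probe set. The factors NKX2-5, with 6.73 and 6.55, TEAD1, with 8.62 and 8.56, and SRF, with 8.64 and 8.67, were within 0.2 of the empty vector. Of the 27 factors, 25 were within 1.5-fold, and GATA6 differed most.

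Downstream of the receptors, none of 19 measured guanylyl cyclase, nitric oxide synthase and cyclic GMP effector genes was 1.5-fold lower or higher, out of 33 listed. This is near the background, since 97% of all measured genes were within 1.5-fold. Their median difference was 0.02. GUCY2C, the intestinal guanylyl cyclase receptor, read 8.41 with the empty vector and 8.77 with miR-130b. The differences of GUCA2A, which encodes the guanylyl cyclase ligand guanylin, and of the nitric oxide synthase gene NOS1 were 0.17 and -0.09, the second with 0.20 on another probe set. RGS2, a G-protein brake that the cyclic GMP kinase acts on, read 8.26 and 8.62. PPP1R12A, the targeting subunit of myosin phosphatase, differed by -0.33, with its 3 probe sets between -0.33 and -0.31. PDE5A, the cyclic GMP phosphodiesterase, differed by 0.28 on its only measured probe set. The other PDE5A probe sets, all below the floor, differed by -0.62 to 0.17. The kinases PRKG1 and PRKG2 lay below the floor on every probe set.

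Among other convertases and peptide-clearing proteases, 12 of 18 were measured and 2 were at least 1.5-fold lower, where 2.68% of all measured genes were. PCSK5, a convertase of the furin family, read 5.14 with the empty vector and 3.54 with miR-130b. Its 2 further probe sets, below the floor, were also lower, by -0.67 and -1.38. DPP4, a dipeptidyl peptidase that trims B-type natriuretic peptide, read 6.22 and 5.05 in its brightest probe set, 2.24-fold lower. Its other probe sets differed by -2.33 and -1.79. PCSK6, which is reported to activate corin, differed by -0.02 in the brighter of its measured probe sets and by -0.68 in the other. On 2 PCSK6 probe sets below the floor the differences were -0.44 and 0.03. By brightest probe sets, the next largest differences of the convertases were those of PCSK7 (-0.10) and PCSK4 (0.09). Those of the clearing proteases were THOP1 (-0.20) and ECE2 (-0.09). Dimmer measured probe sets of PCSK6, given above, and of the convertase MBTPS1 (-0.27) differed more than those of PCSK7 and PCSK4. Neprilysin (MME), a peptidase of natriuretic peptides, read 5.27 and 5.26, and the insulin-degrading enzyme gene IDE read 8.48 and 8.48. With the floor at the 75th percentile, 6 of these genes were left and 0 were 1.5-fold lower, since PCSK5 and DPP4 lie below that floor.

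NPPB is also known as one of a set of genes that rise in heart muscle under load. Of 17 such genes listed, 11 were measured, 4 were at least 1.5-fold lower and 0 higher, where 2.68% and 0.294% of all measured genes were. The list's median was -0.23, against 0.03 over all measured genes. This list was chosen with earlier results of these data known, so nothing is read from its share. FHL2, a LIM-domain protein of the sarcomere and nucleus, read 8.33 and 4.96, 10.4-fold lower. ACTA1, skeletal alpha-actin, read 6.53 and 4.31, a difference of -2.23, and reached the floor in the empty vector array only. SPP1 (osteopontin) differed by -1.91 and the metalloproteinase inhibitor TIMP1 by -1.66. The YAP and stretch-responsive genes CCN1, with 10.9 and 11.0, and CCN2, with 11.7 and 11.5, were within 0.2 of the empty vector. EDN1, which encodes the vasoconstrictor endothelin, had a difference of -0.51 on its brightest probe set and -0.97 on the other measured one. Without probe sets named _x_at or _s_at, which include those of FHL2 and SPP1, the count of genes lower by 1.5-fold or more was 2 of 8 measured.

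In the other vasoactive peptide systems (endothelin, adrenomedullin, angiotensin, kinin, apelin and related genes), 13 of 27 were measured and 0 were at least 1.5-fold lower or higher by brightest probe sets, near the 97% of all measured genes within 1.5-fold. EDN1, at -0.51, had the largest difference of this list, and with probe sets averaged it differed by -0.74 and the count lower became 1. Adrenomedullin (ADM) read 9.86 with the empty vector and 10.1 with miR-130b, and angiotensinogen (AGT), a liver product, read 12.43 and 12.44. The receptor modifier RAMP2 differed by -0.18. The median of this list was 0.07.

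**Figure D4:**
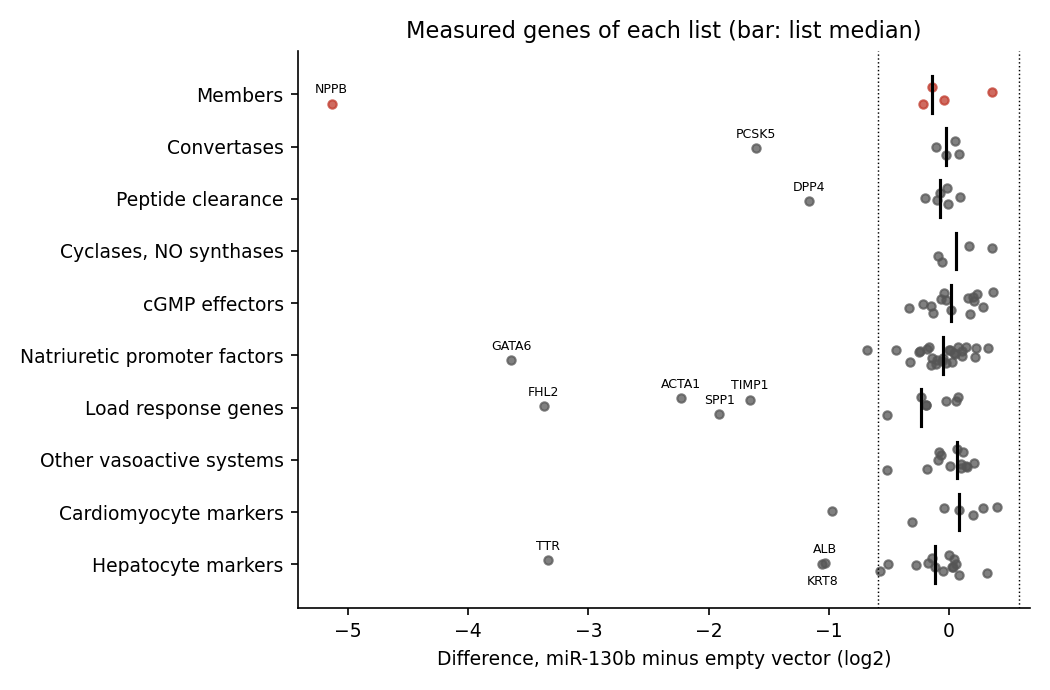
Log2 difference, miR-130b minus empty vector (horizontal axis) for the measured genes of each list shown, 1 point per gene, jittered vertically, with a bar at the list median and dotted lines at 1.5-fold. The endothelial, stromal and leukocyte markers are not drawn. Of the genes drawn, those at least 2-fold lower are named. NPPB at -5.14 stands apart from the 4 other measured members, GATA6 (-3.64) lies lowest among the promoter factors, and FHL2 (-3.37) lies lowest of 4 named load response genes.

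The labelled cell type was checked by its markers. All 17 hepatocyte and hepatoma markers listed were measured, between 9.26 and 14.1 with the empty vector and between 5.92 and 14.2 with miR-130b. Of these, 3 were at least 1.5-fold lower: TTR, the thyroxine carrier, by -3.34, KRT8, a simple epithelial keratin, by -1.05 and ALB, serum albumin, by -1.03 on its brightest probe set. Over all measured genes 2.68% were. The 2 other measured ALB probe sets differed by -1.56 and -2.38, and the average of all its measured probe sets by -1.66. Of 14 cardiomyocyte markers, 7 were measured, between 4.69 and 5.91 with the empty vector and between 4.64 and 5.60 with miR-130b. MYH6, MYL2, RYR2, PLN and TNNC1 lay below the floor on every probe set in both arrays. TNNI3 read 5.17 and 5.37, ACTN2 read 5.33 and 5.29 on its brightest probe set, and SLN read 4.93 and 5.01. TTN read 4.69 and 4.97 on its brightest measured probe set and 5.13 and 4.27 on another. MYL7, the atrial myosin light chain, read 5.61 and 4.64, a difference of -0.97. The light chain genes MYL3 and MYL4 differed by 0.40 and -0.31. The bright NPPB value of the empty vector array thus stood beside cardiomyocyte markers that were below the floor or at most 5.91.

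Of the markers of other cells, 4 of 8 endothelial, 5 of 8 stromal and 3 of 8 leukocyte genes were measured. The stromal collagen gene COL1A2 differed by -3.08, 8.46-fold lower, and by brightest probe sets it was the only one of these at least 1.5-fold lower. On other measured probe sets COL1A1, a further stromal collagen gene, differed by -1.68, -0.88 and 0.38, against -0.08 on its brightest. PECAM1, an endothelial adhesion gene, differed by 0.21 (-0.03 when its probe sets are averaged), CLEC14A by 0.18, TEK by 0.16, DCN by -0.08, CD79A by -0.07, ITGAM by -0.03, THY1 by 0.24, and LYZ, a leukocyte enzyme, by -0.32 on the brighter of its probe sets and by -1.72 on the other (-1.02 averaged). The part of TTR, KRT8, ALB, COL1A2 and LYZ, which were lower in the same array as NPPB, in the NPPB difference was not tested.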

How the data were processed

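Total RNA of 2 arrays (1 per condition, biotin-labelled) was analysed. The authors deposited 1 log2 expression value for each of 54675 probe sets, made by RMA per the submitters' processing notes, which state no version; its settings are not stated there. RMA compresses differences of dim probe sets, and no detection call was used. Depth does not apply to arrays, and their number limits the precision.

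Control probe sets were left out. Of the others, 41091 had 1 gene symbol, 1801 several (which named no gene) and 11721 none. Genes at or above the floor (4.88) in the brighter array were represented by the probe set with the highest mean. The members and lists were chosen with earlier results of these data known. Named genes were all members, every listed gene beyond 1.5-fold, filled up to 3 a list by the largest difference, the 6 genes nearest NPPB, and its neighbours. GATA4, NKX2-5, TEAD1, SRF, PRKG1, PRKG2, PCSK6, MBTPS1, MME and IDE were named after their values were seen. So were CCN1, CCN2, AGT, COL1A1 and the cardiomyocyte genes other than MYL3, MYL4 and MYL7. The alternatives tried were to drop the floor, to raise it to the 75th percentile (6.98), to average probe sets, to leave out suffixed ones, and to centre by loess (span 0.3) or the median. The computation was tested on simulated data. Python 3.11.15, pandas 2.3.3 and statsmodels 0.14.6 were used.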

Additional observations from a re-analysis of the deposited data

How the results depend on the processing

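The NPPB difference of -5.14 was -5.16 with loess centring and -5.17 with median centring. The 4 other alternatives could not change it, since NPPB has 1 bright probe set without a suffix, and so they say nothing about its stability. The counts of members beyond 2-fold or 1.5-fold did not change, and those lower rest on NPPB alone. The number of load response genes at least 1.5-fold lower went from 4 to 2 without suffixed probe sets. Those of FHL2 and SPP1 carry the suffix. The same number was 3 of 7 measured with the floor at the 75th percentile. With the mean of probe sets it was 5 of 11, through EDN1. Convertases and clearance genes went from 2 to 0 with the floor at the 75th percentile, because fewer genes are tested. Vasoactive genes went from 0 to 1 with the mean of probe sets, through EDN1 at -0.74. For single named genes outside the members the same alternatives were chosen after seeing the data, and averaging probe sets moved ALB from -1.03 to -1.66, DPP4 from -1.16 to -1.76 and LYZ from -0.32 to -1.02. No paired analysis was possible because each group has 1 array.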
